A study of Mus musculus with 2 samples.

Results

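The proneural basic helix-loop-helix (bHLH) genes described here are 8 transcription factor genes, Neurog1, Neurog2, Neurog3, Neurod1, Neurod2, Neurod4, Neurod6 and Ptf1a, of 21707 protein-coding genes measured. They form a list of named genes, drawn up with earlier results of these data known, and the rule that assigns sites to them uses no measured value. Each gene was given the DNase-seq peaks and hotspots within 1 kb of its annotated transcription start, called promoter peaks, and those farther away but within 100 kb for which it was the nearest protein-coding gene, called distal. The assay maps open chromatin by sequencing the fragments that the enzyme DNase I releases from nuclei. Both libraries came from 1 group, the hindbrain of healthy mouse embryos of the strain B6NCrl at 11.5 days, with male and female embryos pooled. They are labelled as biological replicates 1 and 2 and share 1 donor record, so whether they came from separate litters is not stated. The tissue was taken whole, and fewer cells with an open site and a less open site in each cell cannot be told apart. A group of 2 libraries permits no test between conditions, so values are given side by side, and the 8 genes are not replicates of each other.

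Proneural bHLH factors bind a short DNA motif, the E-box, together with a ubiquitous E protein partner, and switch on genes that take a dividing progenitor to a neuron. Neurogenins act early, when a progenitor commits, and NeuroD factors act later, as neurons differentiate, while Notch signalling through Hes repressors and the Id proteins hold them back. In the hindbrain such factors are expressed in bands along the dorsoventral axis, among them Ptf1a, which specifies inhibitory neurons of the dorsal hindbrain and cerebellum and also founds the exocrine pancreas.

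Replicate 1 held 150176 analysed peaks and replicate 2 held 194873. Each peak is 150 bp wide and carries a height given by the authors, a whole number whose scaling is not stated, with a median of 36 in replicate 1 and 50 in replicate 2. Heights are given below for replicate 1 and then for replicate 2, and ranks of height were taken within each library. Read depth is unknown. Overlapping promoter peaks of both libraries were found at 66% of all protein-coding genes. They stood at 6 of 6 neural genes checked and at 3 of 5 hindbrain genes, Egr2 and Gbx2 among them. Among genes of blood, vessel, skin, muscle and liver they stood at 0 of 6. Of those 6 genes, 5 had shared distal sites (64% of all genes), with 8 at the vessel gene Cdh5 and 5 at the muscle gene Acta1. Hoxb1 and Hoxa2 had promoter peaks in replicate 2 alone, at heights of 90 and 116.

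The highest distal sites of the genes are shown because they differ in composition. Below are the middle 150 bp of 4 such sites, each open in both libraries, on the plus strand of mm10 and 5′ to 3′, with E-boxes (CANNTG) in capitals. The Neurog2 element (chr3:127639976-127640125) lies 6.92 kb downstream of the start and has 1 E-box. The Neurod1 element (chr2:79499416-79499565) lies 42.7 kb upstream and has 1 E-box of another form. The Neurod2 element (chr11:98294566-98294715), 35.0 kb downstream, has none in a window with a GC content of 74.7%. The Neurod6 element (chr6:55717356-55717505), 36.2 kb upstream, has 1. The highest such sites of Neurog1 and Ptf1a have 0 E-boxes and are not printed.
Neurog2: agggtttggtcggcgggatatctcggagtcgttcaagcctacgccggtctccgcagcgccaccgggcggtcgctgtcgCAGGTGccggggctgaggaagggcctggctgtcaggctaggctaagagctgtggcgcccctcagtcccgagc
Neurod1: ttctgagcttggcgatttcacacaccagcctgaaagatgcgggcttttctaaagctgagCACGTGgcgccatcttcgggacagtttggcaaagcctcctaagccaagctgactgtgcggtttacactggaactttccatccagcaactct
Neurod2: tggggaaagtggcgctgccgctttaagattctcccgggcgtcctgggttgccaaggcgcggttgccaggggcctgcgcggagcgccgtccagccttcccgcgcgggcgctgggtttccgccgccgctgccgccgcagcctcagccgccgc
Neurod6: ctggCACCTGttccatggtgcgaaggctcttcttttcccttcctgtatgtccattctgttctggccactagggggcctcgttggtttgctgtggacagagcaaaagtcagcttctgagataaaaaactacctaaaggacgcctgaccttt

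The stretches just upstream of the starts also differ, here in their CpG dinucleotides, which are marked in capitals in the 250 bases before the RefSeq start of Neurog1 (GRCm38.p6, chr13:56252181-56252430, minus strand) and of Neurod6 (GRCm38.p6, chr6:55681264-55681513, minus strand). The pair is shown because Neurog1 had its highest promoter site within this stretch in both libraries and Neurod6 had no promoter peak in replicate 1. Neurog1 has 29 CpGs there and Neurod6 has 3, against a median of 6 in 32851 RefSeq promoters. The other genes do not follow promoter height in this count. Neurog2, with the highest promoter peak, has 8, and Neurod2, with none in replicate 1, has 11. The highest promoter peaks of Neurog2 and Neurod2 lie outside the stretches counted here. Neurod1 has 22, Ptf1a 19, Neurog3 18 and Neurod4 2 or 7 by RefSeq start.
Neurog1 upstream: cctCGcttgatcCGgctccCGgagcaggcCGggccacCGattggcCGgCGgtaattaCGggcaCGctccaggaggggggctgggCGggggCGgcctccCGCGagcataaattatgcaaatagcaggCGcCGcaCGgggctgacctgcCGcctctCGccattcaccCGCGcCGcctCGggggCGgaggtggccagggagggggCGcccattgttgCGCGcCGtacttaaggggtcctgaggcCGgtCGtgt
Neurod6 upstream: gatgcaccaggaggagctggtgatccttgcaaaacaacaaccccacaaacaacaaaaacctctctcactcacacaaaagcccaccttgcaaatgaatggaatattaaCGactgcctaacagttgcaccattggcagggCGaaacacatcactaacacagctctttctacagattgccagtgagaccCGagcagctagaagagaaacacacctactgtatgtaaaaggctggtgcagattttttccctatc

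Promoters were compared first. A promoter site in both libraries was found at 6 of the 8 genes, against 66% of all protein-coding genes. Neurod2 and Neurod6 were the exceptions, with promoter peaks in replicate 2 alone, a state seen at 3.09% of all genes. By library, 6 genes had a promoter peak in replicate 1 (67.2% of all genes) and 8 in replicate 2 (69.5%). In 7 of the 8 genes the highest promoter peak was missing or under the median of marked genes, those with a promoter peak, in both libraries, against 60.8% of all genes. Neurog2 was the exception. Those medians were 100 in replicate 1 and 126 in replicate 2.

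**Figure D1:**
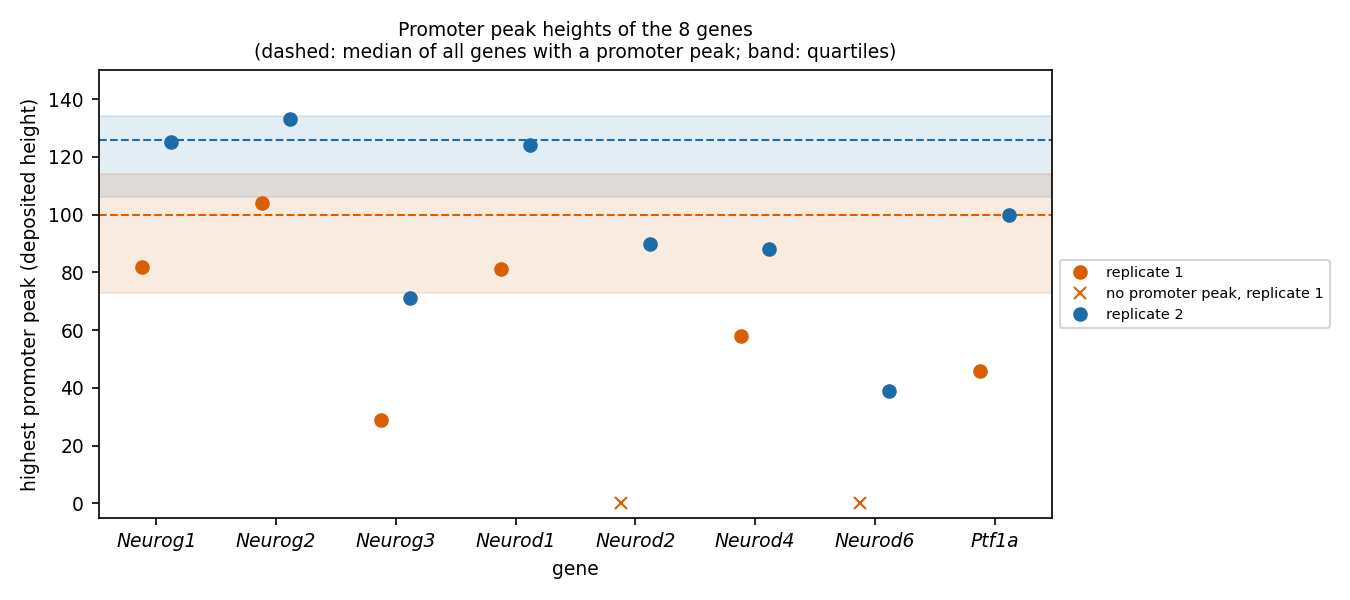
Height of the highest promoter peak (vertical axis, deposited height) of each of the 8 genes in replicate 1 (orange) and replicate 2 (blue), with crosses at 0 where replicate 1 has no promoter peak. Dashed lines are the medians over all genes with a promoter peak, 100 and 126, and bands are the quartiles. Only Neurog2, at 104 and 133, is above both lines.

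Neurog2, the neurogenin that drives commitment over much of the neural tube (ENSMUSG00000027967.8, chromosome 3, 127633135 to 127635631, plus strand), had the highest promoter peak of the 8 genes, at 104 and 133. These ranked at percentiles 56.6 and 70.5 among marked genes. The site (127632676 to 127632845) lay 374 bp upstream of the start. Peaks nearer the start did not coincide: replicate 1 had one of height 68 centred 4 bp upstream, and replicate 2 had one of 97 in the first exon, 156 bp downstream. The start lay in a hotspot of 1188 bp in replicate 1 and 3728 bp in replicate 2, both at the top value of 100. A hotspot is a region of raised cutting, and the median width of all hotspots was 235 bp and 259 bp.

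Neurog1, which commits progenitors of cranial sensory and hindbrain neurons (ENSMUSG00000048904.5, chromosome 13, 56250478 to 56252163, minus strand), has 1 exon. Its highest promoter site (56252236 to 56252405), 158 bp upstream, had heights of 82 and 125, at percentiles 30.4 and 47.9. Both other promoter sites were also open in each library, at 54 and 96 in the coding exon and at 32 and 81 in the untranslated part near the gene's 3′ end. In both libraries the upstream site was the highest and the one farthest into the gene the lowest. Neurog1 was the only one of the 8 genes with more than 2 shared promoter sites.

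Neurog3 is best known as the factor that starts the endocrine lineage of the pancreas (ENSMUSG00000044312.4, chromosome 10, 62133090 to 62134763, plus strand). It had a promoter site (62133056 to 62133225) at 29 and 71, percentiles 3.35 and 8.93. The hotspots over its start had −log10 false discovery rates of 3.70 and 3.10, against the top value of 100 at Neurog1, Neurog2, Neurod1 and Neurod4 in both libraries. The gene lies within Fam241b, whose own start is 6.78 kb away.

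Neurod1 promotes neuronal differentiation and survival, in cerebellar granule and inner ear neurons among others, and also acts in pancreatic islets (ENSMUSG00000034701.9, chromosome 2, 79452521 to 79456751, minus strand). Its promoter site (79456756 to 79456945), 100 bp upstream, had heights of 81 and 124, at percentiles 29.7 and 46.0. These values are close to those of Neurog1. The hotspot over the start was 717 bp wide in replicate 1 and 7303 bp in replicate 2, where it held 13 peaks and was wider than 99.5% of the start hotspots of that library. The median width of start hotspots was 981 bp and 1651 bp. The gene overlaps Cerkl and Gm26755, so signal here cannot be assigned to Neurod1 alone.

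Neurod4, a factor of early differentiating neurons (ENSMUSG00000048015.4, chromosome 10, 130268152 to 130280240, minus strand), had a single promoter peak per library. Its heights were 58 and 88 (130280176 to 130280325), at percentiles 16.1 and 14.5. Neurod2, a factor of maturing excitatory neurons (ENSMUSG00000038255.6, chromosome 11, 98325415 to 98329648, minus strand), had no promoter peak in replicate 1. In replicate 2 it had 3, at heights of 90, 87 and 77, all in its intron between 437 and 957 bp downstream, and its start lay in no hotspot of either library. Neurod6, another factor of differentiating neurons (ENSMUSG00000037984.9, chromosome 6, 55677822 to 55681263, minus strand), likewise had no promoter peak in replicate 1. Its replicate 2 peaks had heights of 39, over the start of the transcript, and 38, at 288 bp upstream, and the higher ranked at percentile 2.73.

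Ptf1a (ENSMUSG00000026735.2, chromosome 2, 19445663 to 19447501, plus strand) differed between the libraries around its start. Replicate 1 had 1 promoter peak, of height 46, in the coding exon 658 bp downstream (19446236 to 19446405). Replicate 2 had 5, with heights of 66, 100, 89, 92 and 94 from 1.03 kb upstream to the same exon. The highest of these, 132 bp upstream, was in replicate 2 alone. The start lay in a hotspot of 2863 bp in replicate 2 and in none in replicate 1. With the promoter window at 500 bp, Ptf1a had no promoter peak in replicate 1. An antisense gene, Ptf1aos, overlaps it, and DNase-seq does not separate strands.

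In order of the highest promoter peak, the genes ran Neurog2, Neurog1, Neurod1, Neurod4, Ptf1a and Neurog3 in replicate 1. Replicate 2 gave Neurog2, Neurog1, Neurod1, Ptf1a, Neurod2, Neurod4, Neurog3 and Neurod6. Neurog1 and Neurod1 differed by 1 unit in each library, and Neurod2 and Neurod4 by 2 units in replicate 2. The places of Ptf1a and Neurod4 were exchanged between the libraries. Neurod4 and Neurod6 had the lowest CpG observed to expected ratios, 0.200 and 0.205 in the 1 kb around the start, and Neurod2 had 0.455. Neurog2 had the highest, 0.851, followed by Neurog1 with 0.756, Ptf1a with 0.731, Neurod1 with 0.679 and Neurog3 with 0.506. The median of all genes was 0.607.

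The start lay inside a hotspot of both libraries at 5 of the 8 genes, against 61.1% of all genes. Hotspots over 2 kb covered the start of 0 of the 8 genes in replicate 1 (3.93% of all genes) and of 4 in replicate 2 (21.2%), namely Neurog1, Neurog2, Neurod1 and Ptf1a. Without peaks inside hotspots over 2 kb, a setting added after the data were seen, the count of genes with a shared promoter site was 2 in place of 6. This was fixed in advance, since those 4 genes are among the 6 and their shared promoter sites lie in these hotspots. The same share over all genes was not computed.

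Distal sites were counted next. The 8 genes had 182 distal sites, of which 65 were shared by both libraries, 33 were in replicate 1 alone and 84 in replicate 2 alone. The median gene had 1 shared distal site and the mean was 2.54. At least 1 was found at 7 of the 8 genes (64% of all genes), at least 4 at the same 7 (24.3%) and at least 8 at 5 (8.49%). Among those 5, Neurog1, Neurod1, Neurod2 and Ptf1a combined at least 8 shared distal sites with a promoter peak under the median of marked genes, or none, in both libraries, against 4.64% of all genes. Of the 1843 genes with at least 8 shared distal sites, 54.7% had such a promoter. This combination was picked after its values were seen.

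**Figure D2:**
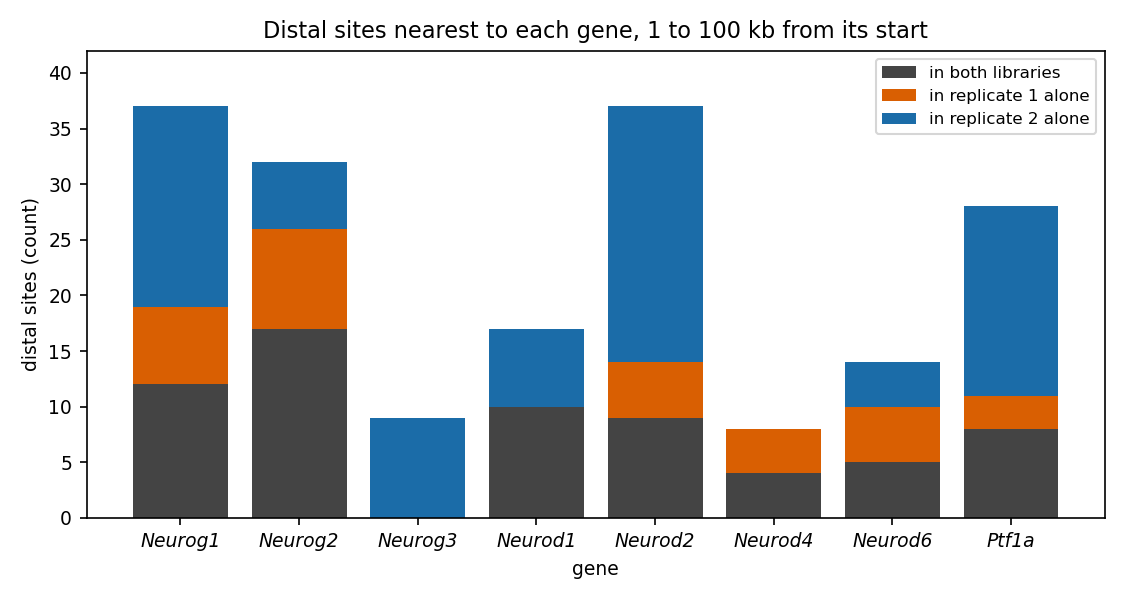
Number of distal sites (vertical axis, count) assigned to each of the 8 genes, split into sites with a peak in both libraries (grey), in replicate 1 alone (orange) and in replicate 2 alone (blue). Neurog2 has the most shared sites, 17, and Neurog3 has 0, with 9 sites in replicate 2 alone.

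Neurog2 had 17 shared distal sites, percentile 98.9 of all genes, and 9 and 6 in replicate 1 and replicate 2 alone. Neurog1 had 12 shared, percentile 97.1, with 7 and 18 alone. Neurog2 and Neurog1 were denser in shared sites than the other 6 genes, Neurog3 among them, for the length of DNA nearest to them. Neurog2 had 19.8 per 100 kb and Neurog1 21.2, against a median of 2.69. Neurog3 had 0 shared distal sites in the 12.4 kb nearest to it. Its 9 distal sites in replicate 2, of heights from 34 to 56, had no partner in replicate 1, and the highest lay 1.44 kb downstream.

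Among the NeuroD genes, Neurod1 had 10 shared distal sites (percentile 95.4, 9.88 per 100 kb), and every distal peak of replicate 1 there was matched in replicate 2. Neurod2 had 9 (percentile 94.1, 12.8 per 100 kb), Neurod6 had 5 (percentile 83.8) and Neurod4 had 4 (percentile 78.7). Neurod6 has the longest nearest stretch of the 8 genes, 175.8 kb, and its density of 2.84 per 100 kb was close to that of the median gene. Ptf1a had 8 (percentile 92.5, 8.97 per 100 kb).

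Noncoding genes bear on these assignments. When the nearest gene of any class could claim a site, noncoding genes included, the sum went from 65 to 47, Ptf1a held 0 and Neurod2 held 4. The part of noncoding genes alone in this was not counted. Of the shared distal sites, 2 at Ptf1a lay within 1 kb of the start of Gm13344, 1 at Neurod1 within 1 kb of Gm26755 and 1 at Neurod2 within 1 kb of Gm20644. Proximity alone does not show which gene a site acts on.

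**Figure D3:**
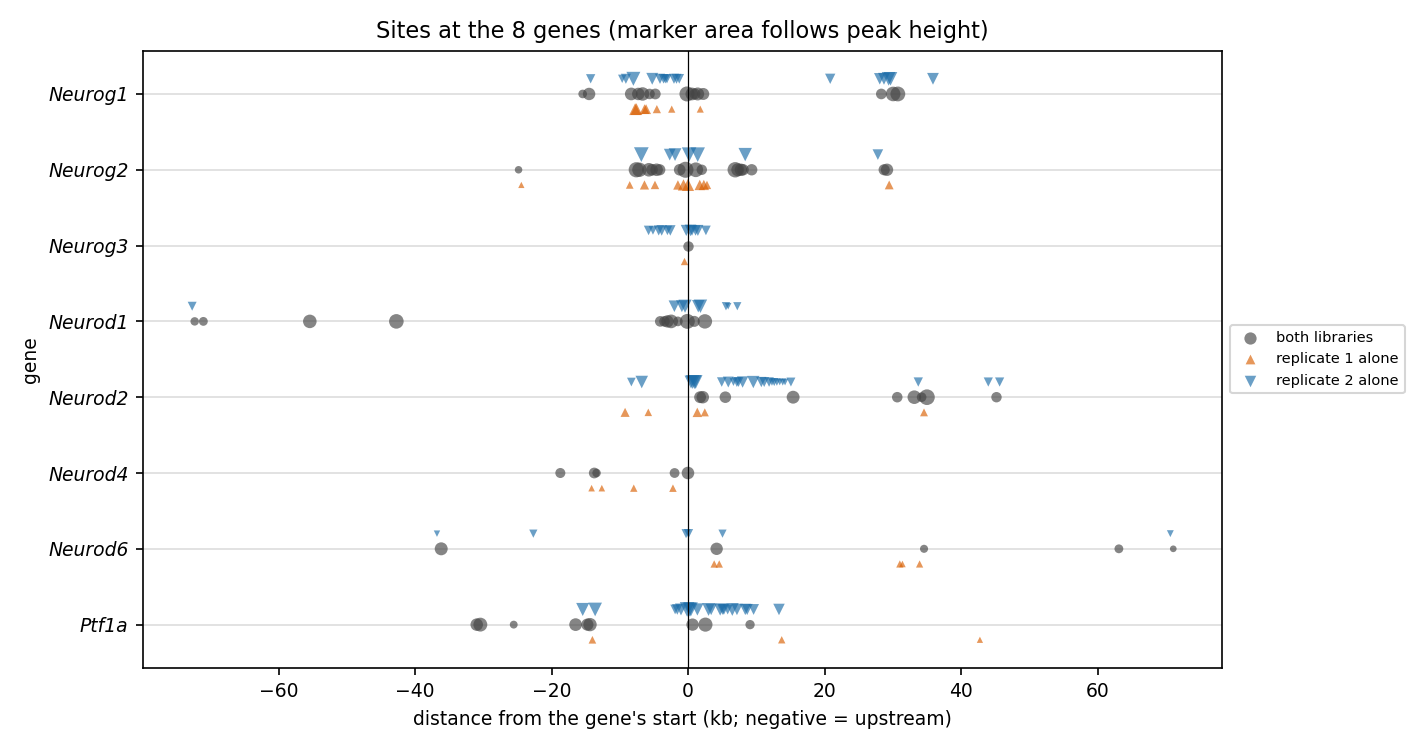
Position of every promoter and distal site of the 8 genes (horizontal axis, distance of the middle of the site from the start in kb, negative upstream), with sites of both libraries (grey circles), replicate 1 alone (orange) and replicate 2 alone (blue), and marker area following peak height. Neurog2 and Neurog1 carry dense groups near the start and further sites about 28 to 31 kb downstream, and the shared sites of Neurod1 reach 72.3 kb upstream.

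Neurog2 was flanked on both sides. Within 10 kb of the start 14 of its 17 shared distal sites were found, with heights from 33 to 94 in replicate 1 and from 67 to 126 in replicate 2. The highest by rank (127639956 to 127640145) lay 6.92 kb downstream at 92 and 126. The next (127625456 to 127625645) lay 7.58 kb upstream at 89 and 124, and the third (127634176 to 127634365), in the coding exon 1.14 kb downstream, was at 89 and 110. Among the shared distal sites of the genes described here, that exon site lay nearest to the 1 kb promoter limit. The farthest (127662156 to 127662425), at 29.2 kb, had 59 and 82. The highest peak of replicate 2 alone, 100 at 6.84 kb upstream, lay in a hotspot that both libraries called there. The highest distal peak of replicate 1 alone, 50, lay 1.72 kb downstream.

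Neurog1 had 2 main groups. From 4 to 9 kb upstream there were 5 shared sites, 5 in replicate 1 alone and 3 in replicate 2 alone, under hotspots of up to 2773 bp and 4931 bp. The highest shared site of this group (56258696 to 56258945), 6.66 kb upstream, had 64 and 103. Peaks of 65 in replicate 1 and 90 in replicate 2 lay 7.75 and 8.01 kb upstream with no overlap, although the same hotspot covered both in each library. Some 31 kb downstream, the highest site (56221256 to 56221585) had 92 and 111, and its neighbour (56222016 to 56222205), 30.1 kb downstream, had 82 and 115. In replicate 1 the first of these exceeded the gene's highest promoter peak of 82.

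The distal site 42.7 kb upstream of Neurod1 (79499416 to 79499565) had heights of 91 and 105. It was higher than the promoter peak in replicate 1 (81) and lower than it in replicate 2 (124). A site in the coding exon 2.47 kb downstream (79454176 to 79454385) had 78 and 114, and another (79459136 to 79459305) the same distance upstream had 66 and 107. The latter and 3 further shared sites upstream of it lie in exons of the noncoding gene Gm26755. The last shared site, 72.3 kb upstream, had 25 and 41. The highest peak of replicate 2 alone, 83, lay in the coding exon 1.82 kb downstream.

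At Neurod2 all 9 shared distal sites lay downstream. The highest (98294556 to 98294725), at 35.0 kb, had 91 and 135, and 135 was the highest value of any site of the 8 genes. Next came a site at 33.2 kb (98296416 to 98296565) with 78 and 92 and one at 15.4 kb (98314176 to 98314325) with 63 and 90. Replicate 2 had a run of 17 sites of its own between 4 and 16 kb downstream, of heights from 20 to 70, where replicate 1 had 0 of its own and 2 sites were shared. The higher of those shared sites is the one at 15.4 kb and the other had 45 and 78. The farthest shared site, at 45.2 kb, had 36 and 64. The highest distal peaks of 1 library alone were 41 in replicate 1 and 87 in replicate 2, at 1.36 and 1.12 kb downstream.

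Neurod4 and Neurod6 had lower distal sites. The highest at Neurod4, 13.7 kb upstream, had 42 and 65, followed by 41 and 52 at 18.7 kb and 27 and 62 at 1.97 kb upstream. A peak of 26 at 2.21 kb upstream was its highest in replicate 1 alone. At Neurod6 the site 36.2 kb upstream (55717356 to 55717505) had 64 and 91 and one 4.19 kb downstream had 52 and 89. Its other 3, from 34.6 to 71.1 kb downstream, ranged from 16 to 23 in replicate 1 and from 25 to 49 in replicate 2, with 23 and 49 at 63.1 kb and 16 and 25 at 71.1 kb. Its highest distal peaks of 1 library alone were 25 in replicate 1 and 31 in replicate 2, each height found at 2 sites. The genome-wide medians of shared distal sites were 43 and 67.

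Around Ptf1a the highest shared distal site by rank (19448116 to 19448305), 2.55 kb downstream, had 73 and 111. A pair of sites upstream had 86 and 92 at 30.4 kb (19415156 to 19415305) and 59 and 85 at about 31 kb. A group between 13 and 17 kb upstream, in and beside the noncoding gene Gm13344, held 3 shared sites with heights from 40 to 59 in replicate 1 and from 90 to 114 in replicate 2. Of these the highest by rank (19431216 to 19431385), 14.4 kb upstream, had 50 and 114. The group also held 2 sites of replicate 2 alone, at 79 and 86, and 1 of replicate 1 alone, at 27 and 14.0 kb upstream. One hotspot of 3882 bp spanned this group in replicate 2, and the separate hotspots of replicate 1 at the shared sites were 175 to 239 bp wide. Downstream, between 1 and 14 kb, replicate 2 had 13 sites of its own at heights from 46 to 76, beside 2 shared sites and 1 of replicate 1 alone.

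**Figure D4:**
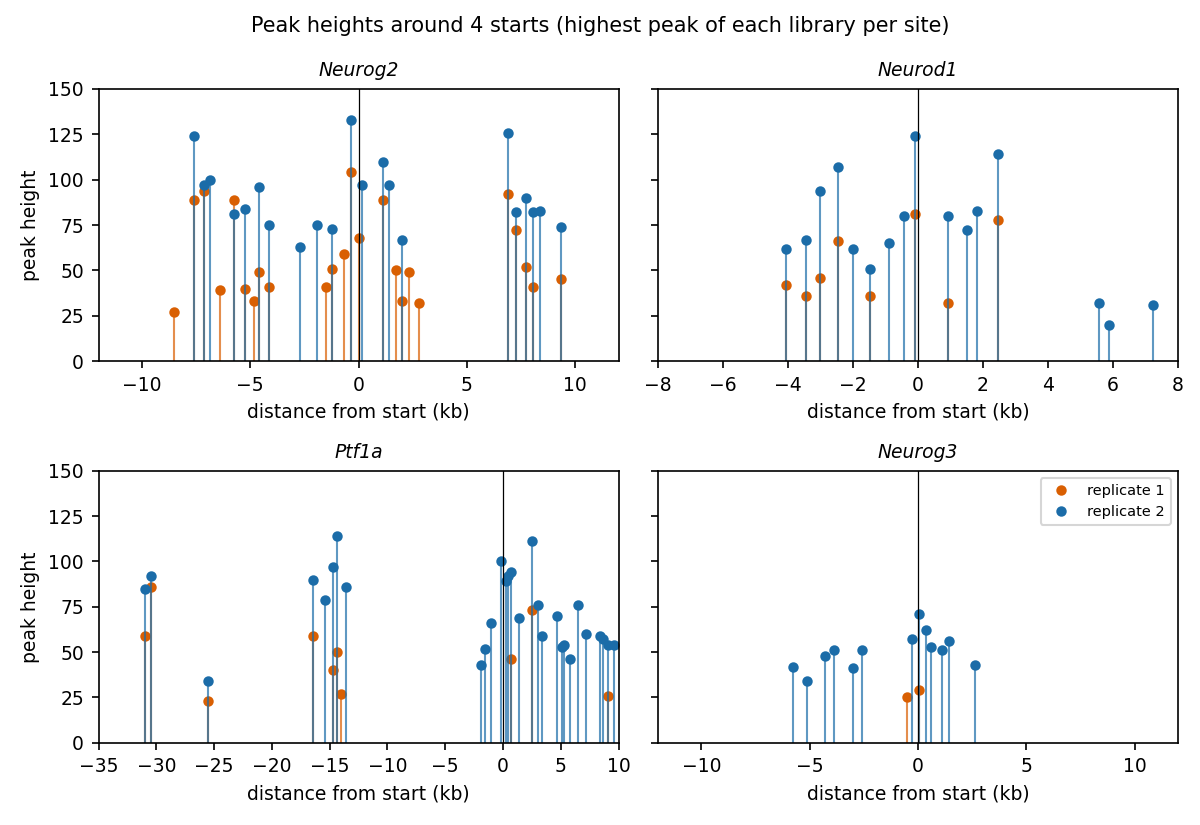
Peak height (vertical axis) against distance of the site from the start (horizontal axis, kb) at Neurog2, Neurod1, Ptf1a and Neurog3, with the highest peak of each library per site (orange, replicate 1; blue, replicate 2). Neurog2 has peaks of both libraries on either side, while Ptf1a has 13 sites of replicate 2 alone from 1 to 14 kb downstream.

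The group upstream of Ptf1a holds a composite motif. As background, Ptf1a binds DNA in a complex with an E protein and Rbpj, the DNA-binding factor of Notch signalling, at an E-box followed by the Rbpj core at a fixed spacing, and the gene has a known upstream enhancer through which the factor maintains its own transcription. The motif CANNTGNNNNNNTTCCCA, searched on both strands after the data were seen, occurred in 2 of the 209 promoter and distal sites of the 8 genes, and both were sites of Ptf1a. One is shared (chr2:19430836-19430985, 14.8 kb upstream, heights 40 and 97) and the other is in replicate 2 alone (chr2:19431976-19432125, 13.6 kb upstream, height 86). Genome-wide the motif occurred in 52 of 55090 shared distal sites (0.0944%) and in 68 of 55788 of replicate 2 alone (0.122%). With any spacing up to 30 bases, an E-box and TGGGAA stood together in 4 of the 65 shared distal sites (6.15% against 5.46% genome-wide). Of these, 2 were at Neurog1, 1 at Neurog2 and 1 at Ptf1a. The middle 150 bp of the 2 Ptf1a sites with the 6-base spacing are given on the plus strand of mm10, 5′ to 3′. The E-box and the TTCCCA are in capitals. The match is in letters only, and binding was not measured.
Ptf1a at 14.8 kb: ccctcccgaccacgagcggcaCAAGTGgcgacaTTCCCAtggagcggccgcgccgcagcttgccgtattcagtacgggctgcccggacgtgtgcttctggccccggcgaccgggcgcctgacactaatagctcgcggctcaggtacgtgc
Ptf1a at 13.6 kb: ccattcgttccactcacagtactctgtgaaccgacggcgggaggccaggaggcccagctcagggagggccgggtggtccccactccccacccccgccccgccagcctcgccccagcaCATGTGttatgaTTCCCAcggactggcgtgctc

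Shared distal sites of the 8 genes lay closer to the start than shared distal sites over the genome. Within 10 kb there were 34 of the 65 (52.3%), against 32.9% of all 55090 shared distal sites, and the median distance was 9.09 kb against 19.6 kb. Neurog2 gave 14 of the 34, Neurog1 gave 7 and Neurod1 gave 6. Neurod2 had 3 of its 9 within 10 kb, Ptf1a 2 of 8, Neurod6 1 of 5 and Neurod4 1 of 4. The median distance exceeded the genome-wide one at Neurod2 (30.7 kb) and Neurod6 (36.2 kb). It was below it at Neurog1, Neurog2, Neurod1, Neurod4 and Ptf1a. By annotation 48 were intergenic, 5 intronic and 12 in exons. Height was greater in replicate 2 at 63 of the 65 (96.9%, against 93.8% of all shared distal sites), the exceptions being sites of Neurog2 at 24.8 kb upstream (30 and 22) and 5.73 kb upstream (89 and 81). The median ratio of replicate 2 to replicate 1 was 1.52 at these sites and 1.43 over all shared distal sites. The heights have no stated common scale, so these values cannot be read as a difference in openness between the libraries.

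The genome-wide E-box share lay inside the interval of these sites. A match to CANNTG in the middle 150 bp was found in 37 of the 65 shared distal sites (56.9%, exact 95% interval 44.0% to 69.2%), against 60.7% of all shared distal sites. Windows 1 kb upstream of the sites held it in 47.7%, and in 55.3% genome-wide. Neurog2 had it in 12 of 17 sites, Neurog1 in 7 of 12, Neurod2 in 5 of 9, Neurod1 in 4 of 10, Neurod6 in 4 of 5, Ptf1a in 3 of 8 and Neurod4 in 2 of 4. Several sites come from 1 locus, so the intervals cover counting error only.

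Single forms of the E-box, each part of the CANNTG count, varied more. CAGATG stood in 10 sites (15.4%) against 15.8% genome-wide, CAGGTG in 8 (12.3% against 10.9%) and CATATG in 1. CAGCTG stood in 3 (4.62%, interval 0.962% to 12.9%) against 15.5%. CACGTG stood in 5 (7.69%, interval 2.54% to 17.0%) against 3.35%, at Neurog1 and Neurog2 in 2 sites each and at Neurod1 in 1, the element printed above. The Rbpj core TGGGAA stood in 11 sites (16.9% against 16.6%), and CACNAG, bound by Hes repressors, in 22 (33.8% against 38.5%).

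For factors of neural progenitors, the Sox motif ACAATG stood in 9 sites (13.8% against 8.95%), 5 of them at Neurog1, and ACAAAG in 8 (12.3% against 15.6%). TGACAG, a Meis and Pknox motif, stood in 9 (13.8% against 12.8%), the POU motif ATGCAAA and the homeodomain motif TAATTA in 1 each, and the Gata motif AGATAA in 4 (6.15% against 4.82%). The core motif of the insulator protein CTCF with at most 1 mismatch, searched after the data were seen, was in 10 sites (15.4%, interval 7.63% to 26.5%) against 29.0%. Those 10 include the sites 36.2 kb upstream of Neurod6, 33.2 kb downstream of Neurod2 and 30.4 kb upstream of Ptf1a. The upstream stretch of Neurog1 printed above has 1 match to the POU motif ATGCAAA, which is found in 4.12% of RefSeq promoters, and no E-box, while that of Neurod6 has 2 E-boxes.

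**Figure D5:**
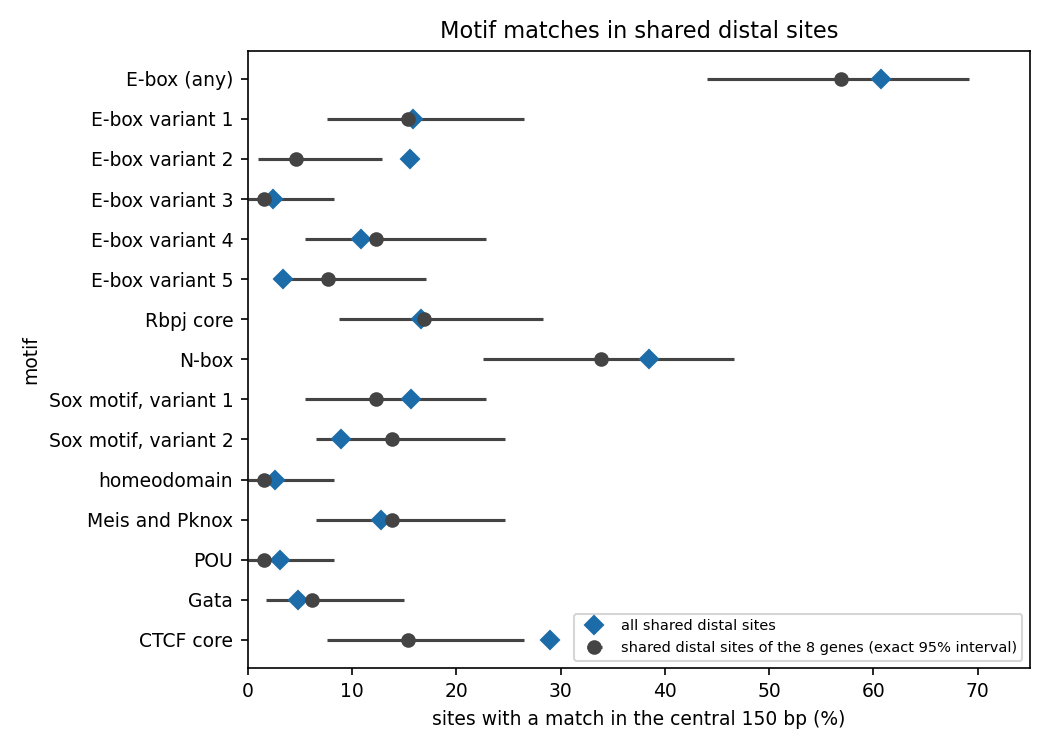
Share of shared distal sites with a motif in the middle 150 bp (horizontal axis, percent) for the 65 sites of the 8 genes (grey, with exact 95% intervals) and for all 55090 shared distal sites (blue diamonds). E-box variant 1 is CAGATG, variant 2 is CAGCTG, variant 3 is CATATG, variant 4 is CAGGTG and variant 5 is CACGTG, and Sox variant 1 is ACAAAG and variant 2 is ACAATG. The genome-wide share falls outside the interval for variant 2 of the E-box and for the CTCF core. The intervals are not adjusted for the 14 planned motifs and the CTCF core, which was searched after the data were seen.

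Partners and opponents of these factors had promoter sites in both libraries, which 66% of all protein-coding genes also had. The E protein genes Tcf3, Tcf4 and Tcf12 had shared promoter sites in 3 of 3 cases. Heights were 129 and 141 at Tcf4, 115 and 134 at Tcf3 and 106 and 137 at Tcf12. Shared distal sites numbered 18 at Tcf4, 17 at Tcf12 and 2 at Tcf3. Of the inhibitors, 8 of 8 had a shared promoter site, among them Hes1 with 120 and 142 and Hey1 with 121 and 140. Their median of 10.5 shared distal sites was the highest of the lists beside that of the E proteins, 17, with 19 at Hes1 and 16 at Id3. These promoter peaks were higher in each library than that of Neurog2, with Hes3 (63 and 106) and, in replicate 2, Id1 (132) and Id3 (130) as exceptions among the inhibitors.

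Other neural bHLH genes were closer to the 8 genes in promoter height. Of 14, 13 had a shared promoter site (66% of all genes), the exception being Bhlhe23, at 80 in replicate 2 alone. Ascl4 had 85 and 124 with 1 shared distal site. Olig3, a factor of the dorsal hindbrain, had 24 shared distal sites behind a promoter at 38 and 96, and Atoh1, of the rhombic lip, had 20 behind one at 72 and 118.

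Targets and effectors of the proneural factors had a shared promoter site in 19 of 19 genes, against 66% of all genes. Cbfa2t2 reached 120 and 142 and the cell cycle inhibitor gene Btg2 122 and 137. The lowest of the list in both libraries was Dcx, at 32 and 49. The most shared distal sites were 20 at Gadd45g and 19 at the neuronal splicing factor gene Srrm4. Among partners and targets of Ptf1a, 8 of 9 had a shared promoter site (66% of all genes), the exception being Tfap2b, at 97 in replicate 2 alone. The partner gene Rbpj had 120 and 142 and Lhx1 had 96 and 130, and the inhibitory neuron factor genes Pax2 and Lhx5 had 36 and 14 shared distal sites. Replicate 2 had many more distal peaks than replicate 1 at Tfap2b (62 against 5), Prdm13 (45 against 8) and Tfap2a (66 against 19), and at Ptf1a it had 26 against 13. These genes were named after their values were seen. In the rest of the list, Pax2 had 94 against 57, Lhx5 39 against 16 and Lhx1 31 against 11. Rbpj had 19 against 11, Rbpjl 9 against 5 and Kirrel2 2 against 0. All genes together had 117145 against 84508.

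The match between replicates was then counted. Of the 117 replicate 1 peaks of the 8 genes, 78 had a partner in replicate 2 (66.7%, exact 95% interval 57.4% to 75.1%), against 68.9% over all genes. Of the 184 replicate 2 peaks, 76 had a partner in replicate 1 (41.3%, interval 34.1% to 48.8%), against 53.9%. For promoter peaks of replicate 2 it was 9 of 25 (36%, interval 18.0% to 57.5%) against 69.8%. For its distal peaks it was 67 of 159 (42.1%, interval 34.4% to 50.2%), an interval that holds the 48.7% of all genes. Neurod2 gave 9 of 41 and Neurog3 1 of 14, while Neurog2 gave 18 of 25 and Neurod4 5 of 5. More distal peaks in replicate 1 than in replicate 2 were found at Neurog2 (26 and 23), Neurod4 (8 and 4) and Neurod6 (11 and 9), 3 of the 8 genes against 16% of all genes. Replicate 2 had the longer peak list over the whole genome, and the part of this in these differences was not tested.

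Likeness to other genes was measured over the 2 libraries as the distance between 4 percentile ranks, the highest promoter peak and the number of distal peaks in each library. Sez6l was among the nearest to Neurog1 (distance 2.66). Nkx1-1 was nearest to Neurod2 (0.994), with no promoter peak in replicate 1, a height of 91 in replicate 2 and 15 and 34 distal peaks. Med13l was among the nearest to Neurog2. The nearest to Neurod1 were Itgav and Runx2, to Ptf1a 4930447C04Rik and Cd83, and to Neurod4 Kcna2 and Gtf2a1l. Neurog3 had Frmpd4 and Zfp951, and Neurod6 had Myog and Myh3.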

How the data were processed

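DNase-seq of mouse hindbrain was analysed in 2 libraries, replicates 1 and 2 of 1 group. Per the text beside the files, the authors called peaks and hotspots for each replicate on its own, on build mm10. Of the aligner, caller, filters and sequencing depth nothing is given in the sources used here. Peak height, as deposited, is a signal value on an unstated scale. The deposited hotspot value is the −log10 of a false discovery rate, with stronger ones written as 100. The deposited hotspot score, made by the authors, was not used. Intervals are exact Clopper-Pearson intervals at 95% and cover counting error only.

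The autosomes and both sex chromosomes were kept, without repeated entries, and peaks sharing 1 bp or more formed a site, called shared where both libraries had a peak. Starts (41264) came from the basic protein-coding transcripts of GENCODE M21. Peaks were assigned by their nearest edge, and printed distances are to the middle of the site. Motifs were searched in the middle 150 bp on both strands. All 8 genes matched RefSeq promoters (GRCm38.p6). The members, gene lists, motifs and naming rule were chosen with earlier results of these data known, and all 8 genes are named, with their promoter site, up to 3 shared distal sites, the farthest one and the highest of each library alone. Of each gene list the rule names the 2 genes with the highest promoter peaks and the 2 with the most shared distal sites; other genes were named after their values were seen, and some that meet the rule are not reported here. Alternatives changed the promoter window, distal limit, overlap, height minimum, annotation, hotspot rule, motif window and library. Site merging and assignment were tested on simulated data. Sequences were read with pysam 0.24.0, intervals came from scipy 1.17.1, tables were handled with pandas 2.3.3 and numpy 2.4.6 under Python 3.11.15, and plots were drawn with matplotlib 3.10.9.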

Additional observations from a re-analysis of the deposited data

How the results depend on the processing

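With 1 library left out, the sum of distal sites was 100 to 150 in place of 65, since sites then needed a peak in 1 library only. The count of genes with a shared promoter site was 2 in place of 6 without peaks inside hotspots over 2 kb, an alternative added after the data were seen. That drop was fixed in advance by the 4 genes with such a hotspot over the start in replicate 2. Under the other alternatives that kept both libraries the count was 5 to 7. With replicate 1 left out, 8 genes had a promoter site in replicate 2, and with replicate 2 left out 6 had one in replicate 1. The sum of shared distal sites was 45 to 66 and the count of starts in a hotspot of both libraries 4 to 6 under the alternatives that kept both libraries. Requiring an overlap of 75 bp gave matched shares of 53.0% in replicate 1 and 33.7% in replicate 2, and keeping peaks above the median height gave 81.2% in replicate 1. With windows of 300 bp the E-box share was 83.1%, against 81.8% of all shared distal sites. Without peaks inside hotspots over 2 kb the shared distal sites came to 5 at Neurog1, 4 at Neurod1 and 5 at Ptf1a. With both libraries kept, Neurog2 had 14 to 17, Neurog3 had 0 throughout, Neurod2 had 4 to 9, Neurod4 2 to 4 and Neurod6 2 to 6. No paired analysis was possible because the series has 1 group. Read depth is unknown, so no limit of detection can be given for a missing peak.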
